A study of Gasterosteus aculeatus with 79 samples.

Results

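The telencephalon of stickleback fathers was profiled by RNA sequencing in the middle of the hatching of their clutch and compared with that of males of the same hour that had no nest. The comparison held 10 of the 79 libraries of the series, chosen by their labels: 5 libraries of males labelled HATCHED and experiment and sampled at 1 p.m. (mid hatching; males 73, 80, 81, 86 and 92), and 5 libraries of males labelled NOCLUTCH and control and sampled at 1 p.m. (1 p.m. control; males 12, 72, 91, 94 and 96). Each library came from a separate male, so that the spread below is a spread between animals. All were males of Gasterosteus aculeatus from a freshwater population, held in the laboratory. Fathers had built a nest, had spawned and were still tending young as the clutch hatched, whereas control males were in reproductive condition and had none of these, so the groups differed by nesting, mating, the days of care and the stage at once.

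The telencephalon of bony fish holds the regions taken to correspond to the amygdala and hippocampus of mammals and is part of the network that governs social behaviour. A stickleback father cares alone: he fans the eggs, defends the nest and retrieves fry that stray. Immediate early genes such as egr and fos family members are transcribed within minutes of neuronal firing and are read as a trace of recent activity, while neuropeptides such as neuropeptide Y and PACAP act over longer times.

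Gene counts per library ranged from 19586861 to 26655236 in mid hatching males and from 16585097 to 20405429 in 1 p.m. control males. Among 5 library measures compared, this depth differed most between the groups (exact permutation test, two-sided, p = 0.0397, adjusted p = 0.198). The share of aligned reads outside genes did not pass (45.95% ± 1.98, SD, n = 5, against 45.3% ± 0.688, SD, n = 5; exact permutation p = 0.571). By their labels the mid hatching libraries came from single lanes and the control libraries from several, so lane and group cannot be told apart. Names were at hand for 681 of the 22456 identifiers, 637 of which could be tested. These names came from the study's tables of genes it called differentially expressed, in paternal care or after a territorial challenge. Named genes and list members were thus preselected, in part on these same libraries, and are not an even sample of their gene families. None of the telencephalon markers listed was among them, so the labelled region could not be checked against its own markers.

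Before any contrast, 2 control libraries stood apart. The library of control male 96 had high levels of markers of the anterior pituitary, the gland below the brain that makes prolactin, growth hormone and the gonadotropins, and of skeletal muscle. Summed over 7 pituitary markers it had 7288 CPM (a share of the library's gene counts on a fixed scale, with TMM factors), against 1.76 to 11.5 in the other 4 control males. The mid hatching males had 18.8, 347, 1.15, 141 and 0.882 CPM (males 73, 80, 81, 86 and 92), so males 73, 80 and 86 were above every control male but 96. Over 18 muscle and cartilage markers male 96 had 2197 CPM, the other controls 35.5 to 59.4 and the mid hatching males 49.5 to 90.2. The library of control male 12 had high levels of markers of photoreceptors, the light-sensing cells of the retina and the pineal organ: 887 CPM over 36 markers, against 6.69 to 35.7 in the other controls and 9.03 to 40.5 in the fathers. All 31 photoreceptor markers tested were highest in male 12, and all 7 pituitary markers were highest in male 96. Across the other 30 telencephalon libraries the photoreceptor sum ran from 4.68 to 1014 CPM and the pituitary sum from 0.55 to 14541. The highest were 9 a.m. control males: male 7 for photoreceptor markers (1014 CPM), and males 39 and 41 for pituitary markers (14541 and 5244 CPM). At the other stages of nesting and care the highest sums were 220 CPM (photoreceptor, eggs male 87) and 381 CPM (pituitary, early hatching male 64). The 9 a.m. control males are the reference for the nest, egg and early hatching values given below. In whole tissue, fewer cells of a type and less RNA per cell cannot be told apart. Results are therefore given with all libraries and, as a choice made after seeing the data, without control males 12 and 96.

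**Figure D1:**
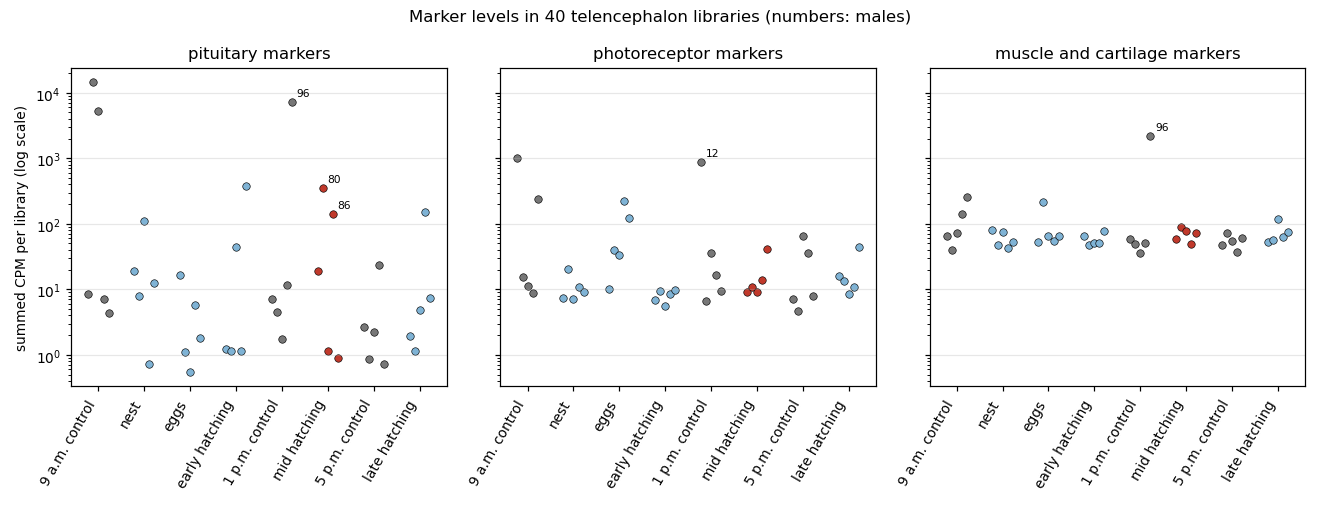
Summed CPM of pituitary, photoreceptor, and muscle and cartilage markers in each of the 40 telencephalon libraries (points, log scale), by group on the x axis, with fathers at mid hatching in red, control groups in grey, other stages in blue, and male numbers beside sums over 100 CPM in the 2 groups compared here. Control male 96 reached 7288 CPM of pituitary markers and 2197 CPM of muscle and cartilage markers, and control male 12 reached 887 CPM of photoreceptor markers.

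No gene of 18397 passed an adjusted p of 0.01 between fathers at mid hatching and their control males (edgeR quasi-likelihood test with Benjamini-Hochberg adjustment; 0% of genes called). At an unadjusted p under 0.05 there were 447 genes higher and 577 lower, 2.43% and 3.14% of those tested. Of the 637 named genes, from which the lists below are drawn, 14 were higher and 71 lower. Without control males 12 and 96 it was 28 and 5 of 625 named genes. For the list counts the named genes are a nearer background than all genes, also where only the share over all genes is printed. The named genes include the list members themselves. Of the 71 lower genes, 23 were photoreceptor markers, 11 muscle and cartilage markers and 3 pituitary markers. By DESeq2, 14 genes passed 0.01, and by edgeR's likelihood ratio test 2. Of the 14, 13 were lower in fathers, and in 10 of them a single control male held over 90% of the control CPM (male 96 in 6 and male 12 in 4). Differences were small for most genes: 89.9% lay within 0.5 of 0 on the log2 scale, and the median size was 0.12. Of 232 genes that differed by 2 or more on that scale, 176 were lower in fathers, and of these 87 were highest in control male 96 and 73 in control male 12. With both of these males left out, 160 genes differed by 2 or more, 129 higher and 31 lower in fathers. Without these males 0 genes passed 0.01 (edgeR quasi-likelihood test, smallest adjusted p 0.337; 1139 at an unadjusted p under 0.05, 6.22% of genes, of which 3.57% higher and 2.65% lower), and of genes past an unadjusted 0.05 with all libraries 271 of 447 higher and 205 of 577 lower remained so.

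The levels of 5 fathers and 5 control males did not overlap for 68 genes that were higher and 52 that were lower in fathers, 0.652% of those tested. If the labels of the males were exchangeable, a gene would separate in this way with probability 0.00794. The share seen was below that, so a lack of overlap does not by itself mark a gene as different. One of the 120, klhdc8a, had a name at hand (1 of 637). Its level was 40.2, 38.0, 36.5, 41.5 and 36.5 CPM in mid hatching males and 34.2, 30.6, 33.9, 34.2 and 25.6 CPM in control males (males in the order given above, as in all lists that follow). Every father was thus above every control male, by 0.28 ± 0.16 (SE) on the log2 scale, which did not pass (edgeR adjusted p = 0.91). In the diencephalon of the same males the difference was 0.34 on the log2 scale (unadjusted p = 0.052). Deviations from the group means correlated best with the same male's other region in 9 of 9 males (r from 0.345 to 0.745). Diencephalon values here and below are therefore not independent of the telencephalon values that chose a gene.

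A pair of genes passed an adjusted p of 0.05, neither with a name (0.0109% of genes). No gene did when the 10 libraries were fitted alone (edgeR quasi-likelihood test, smallest adjusted p 0.227). ENSGACG00000017636 was lower in fathers, at 22.4, 21.7, 19.5, 23.7 and 18.8 CPM against 28.3, 30.7, 31.3, 29.3 and 31.9 CPM in control males. The groups were clear of each other and each was tight, with a log2 fold change of -0.51 ± 0.09 (SE, edgeR adjusted p = 0.0361). Without control males 12 and 96 the log2 fold change was -0.52 ± 0.10 and no longer passed 0.05 (edgeR adjusted p = 0.337). The diencephalon, with other libraries but the same animals, gave 23.5, 22.8, 29.2, 21.1 and 23.9 CPM in fathers. It gave 28.4, 34.6, 32.7 and 35.9 CPM in the 4 control males with a library (12, 72, 91 and 96). There, father 81 overlapped with control male 12, and the log2 fold change was -0.45 (unadjusted p = 0.000865, edgeR adjusted p = 0.17).

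ENSGACG00000008966 was higher in fathers, at 3.30, 2.08, 1.598, 2.01 and 4.66 CPM against 0.832, 0.404, 0.93, 0.524 and 0.736 CPM. The lowest father stood above the highest control male. The control males were near the filter of 0.5 CPM and the fathers low but above it, and the gene rested on 293 counts in the fathers and 64 in the control males. The log2 fold change was 1.98 ± 0.37 (SE, edgeR adjusted p = 0.0457) with all libraries and 2.13 ± 0.46 without control males 12 and 96 (edgeR adjusted p = 0.337). In the diencephalon its level was higher in both groups, 5.15 ± 1.27 CPM (SD, n = 5) in fathers and 3.46 ± 0.865 CPM (SD, n = 4) in control males.

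Among unnamed genes without overlap, the next by p value in each direction were ENSGACG00000001621 and ENSGACG00000017982. ENSGACG00000001621 stood at 30.27, 34.3, 29.4, 30.1 and 32.0 CPM in fathers and 19.6, 19.6, 25.5, 25.5 and 20.3 CPM in control males. Its log2 fold change of 0.50 ± 0.11 (SE) did not pass (edgeR adjusted p = 0.219), and in the diencephalon it was 0.38 (unadjusted p = 0.00305). ENSGACG00000017982 stood at 14.0, 19.8, 18.02, 23.5 and 21.9 CPM in fathers and 34.7, 28.8, 30.27, 28.7 and 61.8 CPM in control males, with male 96 far above the others. Its log2 fold change was -0.92 ± 0.22 (SE, edgeR adjusted p = 0.339), and -0.59 without control males 12 and 96.

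**Figure D2:**
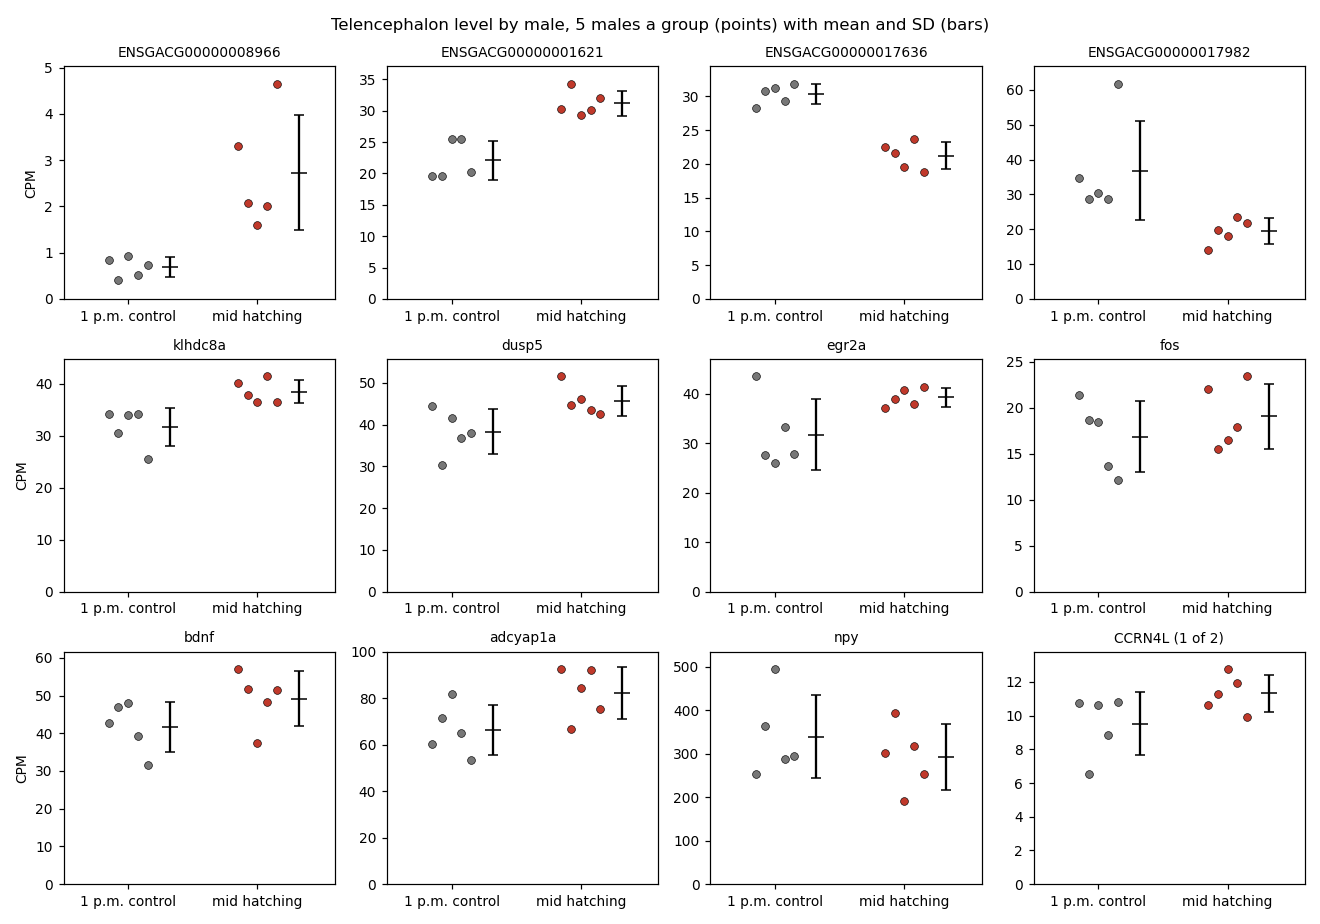
CPM of 12 genes in each telencephalon library (points; 1 p.m. control grey, mid hatching red; 5 males a group), with the mean and SD of each group as bars; every y axis starts at 0. The groups do not overlap in the 4 unnamed genes of the top row and in klhdc8a, and overlap in the other 7 genes.

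The 8 immediate early genes that could be tested had higher means in fathers, but none passed the adjusted test and none reached an unadjusted p under 0.05 (background 5.57% of genes). Their median log2 fold change was 0.21, against -0.01 over all genes tested. Without control males 12 and 96, 1 of the 8 was higher and 0 lower at an unadjusted p under 0.05 (background 3.57% and 2.65%), and the median was 0.19. The gene with the smallest p was dusp5, a phosphatase that switches off ERK signalling: 51.6, 44.7, 46.1, 43.6 and 42.5 CPM in fathers and 44.6, 30.27, 41.5, 36.9 and 38.0 CPM in control males. Control male 12 lay among the fathers and the other 4 control males below all of them, and the log2 fold change was 0.26 ± 0.13 (SE, edgeR adjusted p = 0.904). Without males 12 and 96 dusp5 was the 1 gene past an unadjusted 0.05, at 0.34 ± 0.16 (unadjusted p = 0.0385, edgeR adjusted p = 0.788).

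egr2a, a zinc finger transcription factor of the family of egr1, was more even among fathers (37.1, 39.0, 40.9, 38.0 and 41.5 CPM) than among control males (43.6, 27.7, 25.9, 33.4 and 27.9 CPM). Control male 12 was above all fathers and the other 4 control males below all of them, with a log2 fold change of 0.31 ± 0.21 (SE), and 0.44 ± 0.24 without males 12 and 96. fos overlapped widely, at 22.1, 15.5, 16.5, 17.8 and 23.4 CPM against 21.4, 18.6, 18.4, 13.6 and 12.1 CPM (log2 fold change 0.18 ± 0.29, SE). npas4a, a factor induced by calcium influx in neurons, differed by 0.16 ± 0.26, NR4A1, an orphan nuclear receptor, by 0.08 ± 0.28 and gadd45ab, a DNA damage and demethylation gene, by 0.16 ± 0.22 on the log2 scale (SE). The level of gadd45ab was 45.4 CPM in father 73 and 13.4 to 23.2 CPM in the other 4. Without father 73 the log2 fold change of gadd45ab was -0.23, and without father 81 that of NR4A1 was -0.0215. atf3, a stress-induced factor, differed by 0.53 ± 0.57 (SE) with all libraries and by 0.16 without father 73, from 0.447 to 4.29 CPM in fathers and 0.681 to 2.36 CPM in control males. egr1 was not among the named identifiers.

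bdnf, the neurotrophin BDNF that neurons release with activity and a member of both the immediate early and the care list, stood at 57.1, 51.8, 37.3, 48.2 and 51.4 CPM in fathers and 42.7, 46.9, 48.0, 39.1 and 31.6 CPM in control males. Father 81 lay below 4 control males and the other 4 fathers above all of them. The log2 fold change was 0.24 ± 0.13 (SE, edgeR adjusted p = 0.91), and 0.14 without control males 12 and 96.

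Of 6 peptide genes linked to care that could be tested, 0 were higher and 1 was lower at an unadjusted p under 0.05 (background 2.43% and 3.14%). The 1 was the pituitary hormone precursor pomca. adcyap1a, which encodes the neuropeptide PACAP, stood at 92.7, 66.8, 84.3, 92.2 and 75.4 CPM in fathers and 60.5, 71.5, 81.9, 65.0 and 53.5 CPM in control males. The groups overlapped at fathers 80 and 92 and control males 72 and 91, with a log2 fold change of 0.31 ± 0.16 (SE, edgeR adjusted p = 0.904). npy, the feeding-related neuropeptide Y, was highest in control male 91 (496 CPM) and lowest in father 81 (192 CPM), and differed by -0.22 ± 0.20 (SE) on the log2 scale. scg2a, a secretogranin of peptide vesicles, differed by 0.19 ± 0.14 (SE). The genes oxt, gal, galr1a, galr1b, pgr and esr1 could not be matched to an identifier and were not analysed here.

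pomca and prl in these libraries followed the pituitary markers. pomca was at 1.13, 33.7, 0.557, 46.0 and 0.245 CPM in fathers and 2.01, 1.27, 0.62, 6.71 and 2119 CPM in control males. prl, prolactin, was at 10.6, 76.0, 0.223, 47.5 and 0 CPM in fathers and 0.881, 0.461, 0.155, 0.681 and 1361 CPM in control males. With all libraries fathers were lower (log2 fold changes -4.71 and -3.35, SE 1.83 and 2.07), and without males 12 and 96 they were higher (2.50 and 5.94, SE 1.83 and 3.11). Neither passed. With fathers 80 and 86 left out as well, pomca turned again, to -2.15, and prl was at 3.02. The turn from lower to higher without males 12 and 96 was seen in all 7 pituitary markers. Their median log2 fold change was -3.83 with all libraries and 4.098 without males 12 and 96. At an unadjusted p under 0.05 these markers had 3 of 7 lower (background 3.14%). Without those males they had 0 of 7 in either direction (background 3.57% higher and 2.65% lower). They include smtla (somatolactin, a growth hormone relative of fish), lhb (luteinizing hormone beta), tshb (thyrotropin beta), cga (their common alpha subunit) and nr5a1b (the steroidogenic factor 1 family). pomca was also the only diencephalon marker with an identifier.

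Of the lists examined, photoreceptor markers held the most genes lower in fathers at an unadjusted p under 0.05, 23 of 31. The background was 3.14% of all genes and 71 of 637 named genes, these markers included. guca1a, 1 of the 23, was not tested without control males 12 and 96, and of the other photoreceptor markers 0 of 30 remained. Their median log2 fold change moved from -3.49 to 0.01. gngt2b, a cone transducin subunit, had 2 counts in the fathers and 305 in the control males, and the photoreceptor kinase gene grk1a (copy 1 of 2) had 15.12 CPM in control male 12 and at most 0.613 CPM in any other of the 10. slc1a2a, a glutamate transporter and 1 of 2 genes tested from the radial glia list, was likewise highest in control male 12 (4.55 CPM, others at most 0.343). The same held for slc2a1a, a glucose transporter and the only gene of the vascular list with an identifier (4.84 CPM, others at most 0.223). Whether either marks its listed cell type in these libraries was not tested. The other radial glia gene, the bicarbonate transporter gene slc4a4b, differed by 0.01 ± 0.32 (SE).

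Muscle and cartilage markers divided. With all libraries 1 of 17 was higher and 11 were lower in fathers at an unadjusted p under 0.05, and without control males 12 and 96 it was 4 higher and 0 lower (background 2.43% and 3.14%, then 3.57% and 2.65%), with the median log2 fold change at -2.79 and then 1.04. The contractile genes TNNT3 (troponin T, copy 2 of 2), atp2a1 (the calcium pump of fast muscle) and ACTC1 (an actin, copy 4 of 4) were at 77.8, 209 and 589 CPM in control male 96 and at most 2.13, 3.77 and 1.15 CPM in any other of the 10. tpm2, a tropomyosin, was at 12.9, 11.5, 8.66, 6.93 and 7.79 CPM in fathers and at 5.43, 4.21, 4.24, 5.50 and 205 CPM in control males. All fathers were above all control males but 96, and the log2 fold change was -2.23 ± 0.71 (SE) with all libraries and 1.04 ± 0.43 (SE) without males 12 and 96 (unadjusted p = 0.0207).

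The collagen gene col2a1a, the main collagen of cartilage and notochord, had the smallest p of the named genes that were higher in fathers, at 1.56, 17.8, 2.86, 2.58 and 8.53 CPM against 1.66, 0.98, 2.07, 1.68 and 3.86 CPM. Fathers 80 and 92 stood above every control male, while fathers 73, 81 and 86 lay within their range. The log2 fold change was 1.70 ± 0.52 (SE, edgeR adjusted p = 0.487) with all libraries and 2.07 ± 0.64 without males 12 and 96. Without father 80 it was 0.93, the lowest with any 1 male left out, and it was 0.35 in the diencephalon (unadjusted p = 0.409). The type I collagen gene col1a2 was led by control male 96 (299 CPM, others 4.86 to 29.5) and went from -2.04 ± 0.65 to -0.08 ± 0.54 on the log2 scale without males 12 and 96. col9a3, a second cartilage collagen, differed by 0.28 ± 0.22 and then by 0.63 ± 0.25 (SE). Of 23 extracellular matrix genes, 1 was higher and 2 lower with all libraries and 2 higher and 0 lower without those males at an unadjusted p under 0.05, which for 23 genes is near the background of 2.43% and 3.14%, then 3.57% and 2.65%. The 3 collagen genes named here and the list of matrix genes were chosen after their values were seen.

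**Figure D3:**
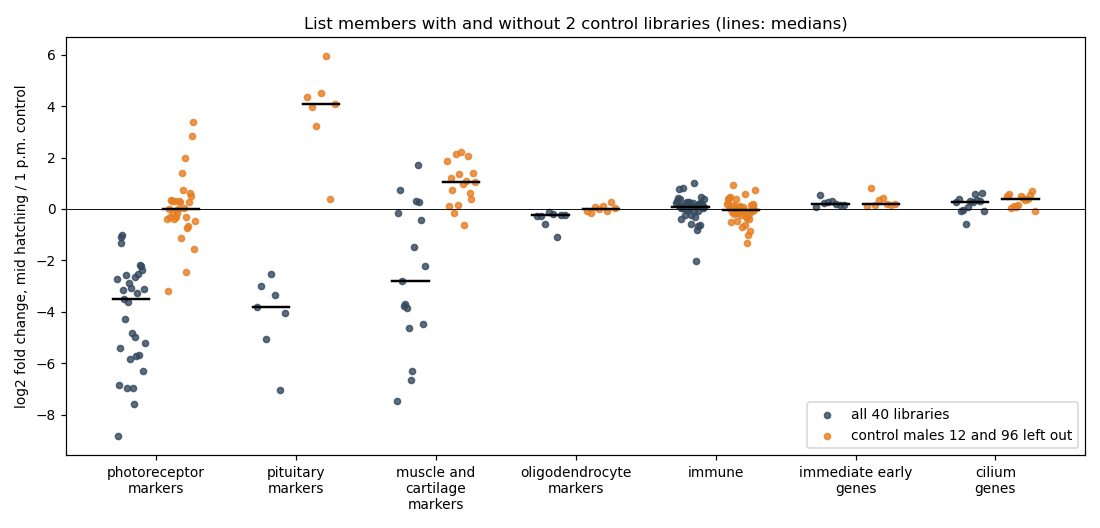
Log2 fold change of mid hatching over 1 p.m. control for each tested member of 7 gene lists (points), with all libraries (dark) and with control males 12 and 96 left out (orange), and list medians as lines. The medians of photoreceptor, pituitary, and muscle and cartilage markers move from -3.49, -3.83 and -2.79 to 0.01, 4.098 and 1.04, while those of immune and immediate early genes lie within 0.21 of 0 in both.

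Immune genes had a wide spread between males of the same group. Of 42 tested, 0 were higher and 1 was lower at an unadjusted p under 0.05 (background 2.43% and 3.14%), and the median log2 fold change was 0.08. The one was mpx, the myeloperoxidase of neutrophils, which was led by control male 96 (29.5 CPM, other controls 0.922 to 3.62) and differed by -0.36 without males 12 and 96. Father 80 had the lowest level in 32 of the 42 genes and control male 72 the highest in 19.

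The microglia marker mpeg1, a perforin of macrophages, was at 297, 7.79, 309, 86.4 and 94.4 CPM in fathers and at 77.9, 413, 44.2, 136 and 64.2 CPM in control males. The range within fathers exceeded the difference between the group means, and the log2 fold change was 0.11 ± 0.76 (SE). irf8, a transcription factor of microglial development in mouse and zebrafish, ran from 12.3 (father 80) to 335 CPM (father 73) in fathers and from 33.9 (male 91) to 306 CPM (male 72) in control males, and lcp1, an actin bundler of leukocytes, from 42.8 to 382 CPM and from 92.3 to 409 CPM. The same males were extreme in the diencephalon, where mpeg1 was at 183, 7.92, 142, 32.9 and 17.1 CPM in fathers and at 50.3, 230, 10.2 and 43.1 CPM in control males 12, 72, 91 and 96. cebpb, a factor of myeloid cells, was at 128 CPM in father 73 and 3.27 CPM in father 80, and differed by 0.82 ± 0.64 (SE). psmb11 (copy 3 of 5), annotated as a proteasome subunit, was at 41.6 CPM in control male 72, others of the 10 at 2.48 to 22.6 CPM.

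**Figure D4:**
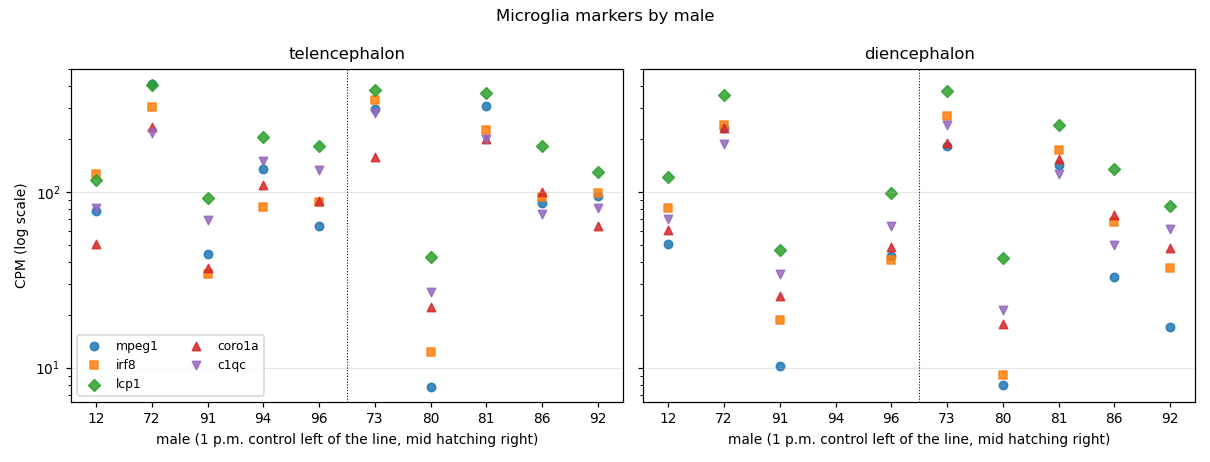
CPM (log scale) of 5 microglia markers in each male, control males left and fathers right of the dotted line, in the telencephalon (left) and the diencephalon (right; control male 94 has no library there). Father 80 is lowest in the telencephalon for all 5 genes, and control male 72 and fathers 73 and 81 are high in both regions.

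All 8 oligodendrocyte markers were highest in control male 96, and 0 of 8 reached an unadjusted p under 0.05 (background 5.57% of genes). Their sum was 499 to 622 CPM in fathers, 541 to 609 CPM in the other 4 control males and 1121 CPM in male 96. mpz, a myelin adhesion protein, was at 155 CPM in male 96 and at 9.70 to 39.9 CPM in the other 9, with a log2 fold change of -1.08 ± 0.54 (SE) that became -0.08 ± 0.51 without males 12 and 96. UGT8, which makes the myelin lipid galactosylceramide, differed by -0.60 and then by 0.08, and TPPP2, a tubulin polymerization gene, by -0.29 ± 0.18 and then by -0.16 ± 0.21 (SE). No difference between the groups passed for the summed level of any of the 8 marker lists (exact permutation test, two-sided, n = 5 and 5, unadjusted p from 0.365 to 0.968, all 8 adjusted p = 0.968; the smallest p such groups allow is 0.00794). With pituitary and photoreceptor marker scores as covariates the log2 fold changes of pomca and mpx went from -4.71 and -2.03 to -0.24 and -1.13. pomca followed the pituitary markers in these libraries, and mpx was led by male 96, which also led those markers. The changes of both genes with these scores are thus not a separate test. Scores of the other marker lists were not used as covariates.

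The remaining lists held few identified genes, and their counts at an unadjusted p under 0.05 stand beside a background of 5.57% of genes. In transmitter signalling 0 of 3 reached an unadjusted p under 0.05: cnih2, which escorts AMPA receptors to the membrane, differed by -0.13 ± 0.13, the kinase gene prkca by -0.13 ± 0.20 and the AMPA receptor subunit gene gria3a by 0.05 ± 0.15 (log2, SE). The first of these was at -0.29 ± 0.14 without males 12 and 96 (unadjusted p = 0.0443), and in the diencephalon cnih2 and prkca differed by -0.63 and -0.87 (unadjusted p = 0.00382 and 0.000607, edgeR adjusted p = 0.206 and 0.17). The only clock gene, CCRN4L (nocturnin, a rhythmic RNA-decay enzyme, copy 1 of 2), stood at 10.7, 11.3, 12.8, 11.9 and 9.95 CPM in fathers and 10.8, 6.51, 10.6, 8.86 and 10.8 CPM in control males. The groups overlapped at fathers 73 and 92, and the log2 fold change was 0.25 ± 0.13 (SE, edgeR adjusted p = 0.904). For CCRN4L it was 0.39 ± 0.15 without males 12 and 96 (unadjusted p = 0.0159, edgeR adjusted p = 0.782) and 0.15 without control male 72. In steroid synthesis 0 of 6 reached it, with cyp46a2, a brain cholesterol hydroxylase, at -0.11 ± 0.16 and hsd3b7, of bile acid synthesis, at 0.14 ± 0.23. Among 5 neurogenesis genes there were also 0: sox2, the neural stem cell factor, was at 72.5 to 85.1 CPM in fathers and 67.4 to 82.0 CPM in control males (log2 fold change 0.06 ± 0.08, SE), HES5 (copy 4 of 9), a Notch target, differed by -0.76 ± 0.54 and sall3a by -0.21 ± 0.30. The respiratory chain genes ndufa7 and atp5s differed by 0.16 ± 0.13 and 0.15 ± 0.13, and the stress genes serpinh1a (a collagen chaperone) and hmox1a (heme oxygenase) by -0.15 ± 0.26 and -0.23 ± 0.52 (log2, SE).

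A further 6 named genes were chosen after their values were seen, from those with an unadjusted p under 0.05 in the telencephalon. prkar2ab, a regulatory subunit of protein kinase A, was at 5.70, 9.67, 3.60, 2.48 and 7.89 CPM in fathers and 3.72, 1.67, 3.72, 2.52 and 2.76 CPM in control males. Fathers 73, 80 and 92 lay above the control males and the others within their range, with a log2 fold change of 1.02 ± 0.37 (SE, edgeR adjusted p = 0.65). In the diencephalon of the same males it was 1.00 (unadjusted p = 0.00273, edgeR adjusted p = 0.195).

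tbc1d32, a gene of primary cilia and hedgehog signalling, stood at 125, 218, 287, 155 and 162 CPM against 123, 93.6, 139, 118 and 147 CPM. Father 73 was within the control range and the other 4 above it, with log2 fold changes of 0.61 ± 0.24 (SE, edgeR adjusted p = 0.753) in the telencephalon and 0.68 in the diencephalon (unadjusted p = 0.00375). Both genes annotated as socs7, which lie next to each other on linkage group XI (positions 15882825 to 15884607 and 15885037 to 15887971 of the Ensembl annotation), had higher means in fathers, and whether they are parts of one gene was not tested. ENSGACG00000014777 was at 38.8, 42.6, 44.8, 32.6 and 32.9 CPM in fathers and 33.6, 20.6, 18.4, 25.3 and 24.3 CPM in control males, the groups overlapping through male 12, and the log2 fold changes were 0.65 ± 0.26 and 0.62 ± 0.28 (SE, edgeR adjusted p = 0.764 and 0.849). In the diencephalon they were 0.96 and 0.85 (unadjusted p = 0.00603 and 0.0187).

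btg3, an antiproliferative gene, was lower in mean in fathers, at 5.61, 4.51, 5.65, 5.57 and 6.57 CPM against 6.41, 9.69, 5.37, 6.76 and 9.75 CPM (log2 fold change -0.44 ± 0.18, SE; edgeR adjusted p = 0.77). Without males 12 and 96 it was -0.38 ± 0.20 (SE), and in the diencephalon it was 0.07. cldn7a, a tight junction claudin, was at 9.48, 10.5, 9.88, 7.54 and 13.2 CPM in fathers and 19.9, 10.7, 25.4, 12.4 and 55.3 CPM in control males. Male 96 was highest, father 92 overlapped with control males 72 and 94, and the log2 fold change was -1.29 ± 0.38 (SE, edgeR adjusted p = 0.476), -0.67 ± 0.38 without males 12 and 96, and -0.61 in the diencephalon.

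cldn7a, dusp5, bdnf, ndufa7 and gria3a also belong to 9 genes taken from groups of genes orthologous between stickleback and mouse. Of the 9, 0 were higher and 1 was lower at an unadjusted p under 0.05 (cldn7a, background 2.43% and 3.14%), with a median log2 fold change of 0.05. Without males 12 and 96, 1 was higher (dusp5) and 0 were lower (background 3.57% and 2.65%), with a median of 0.14. The list had been picked on these samples and is not independent evidence. A list of 13 cilium genes was drawn up after the values of tbc1d32 were seen, and it counts that gene. With all libraries it had 1 higher at an unadjusted p under 0.05, tbc1d32 itself, and 0 lower (background 2.43% and 3.14%). Without males 12 and 96 it had 4 higher, tbc1d32 again among them, and 0 lower (background 3.57% and 2.65%), and its median went from 0.29 to 0.37. Its members kif6, a ciliary kinesin, cep135, a centriole protein, and CCDC39, which sets the spacing of the ciliary axoneme, differed by 0.32 ± 0.18, 0.26 ± 0.15 and 0.37 ± 0.21 with all libraries and by 0.54 ± 0.20, 0.42 ± 0.17 and 0.58 ± 0.24 without those males (log2, SE). Father 80 had the highest level of the 10 in 5 of the 13 genes and father 81 in 3.

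The difference between fathers and control males was compared between telencephalon and diencephalon with the 79 libraries of both regions fitted together. No gene of 18958 passed 0.01 (edgeR quasi-likelihood test, 0% called), and none did with the male as a block. At an unadjusted p under 0.05 there were 520 genes (2.74%), with 1.13% higher and 1.61% lower in the telencephalon than in the diencephalon. For ENSGACG00000008966 the difference of the log2 fold changes was 1.41 ± 0.45 (SE, edgeR adjusted p = 1.0), for ENSGACG00000017636 -0.06 ± 0.15 and for ENSGACG00000001621 0.12 ± 0.16. These unnamed genes were chosen on the telencephalon contrast, which the region difference contains. Among the genes named here the smallest p was that of TNNT3, at -4.81 ± 1.13 (SE, unadjusted p = 6.95e-05, edgeR adjusted p = 0.871), a gene that male 96 leads in the telencephalon.

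The mid hatching difference was also set against those of early and late hatching, each from its own control group at 9 a.m. or 5 p.m. No gene of 18397 passed 0.01 against either (edgeR quasi-likelihood test, 0% called). At an unadjusted p under 0.05 there were 1110 genes against early hatching (6.03%, of which 3% higher and 3.04% lower) and 1255 against late hatching (6.82%, of which 2.59% higher and 4.23% lower). ENSGACG00000017636 had log2 fold changes of -0.03 ± 0.09 at early, -0.51 ± 0.09 at mid and 0.00 ± 0.09 at late hatching (SE), and -0.07 and -0.10 in males with a nest and with eggs. The differences of mid from early and from late were not past the threshold (unadjusted p = 0.00053 and 0.000251, edgeR adjusted p = 0.75 and 0.706). Both contain the mid hatching contrast that chose this gene, so they are not separate evidence for that stage. ENSGACG00000017982 and ENSGACG00000001621 had 0.15 and 0.14 at early hatching and -0.01 and 0.08 at late hatching, against -0.92 and 0.50 at mid hatching, the contrast that chose them.

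ENSGACG00000008966 had 0.00 ± 0.36 in males with a nest, 1.78 ± 0.36 in males with eggs, 1.05 ± 0.35 at early, 1.98 ± 0.37 at mid and 0.46 ± 0.35 at late hatching (SE, the first 3 sharing the 9 a.m. control males). Only the egg and mid hatching values passed an adjusted p of 0.05 (edgeR, 0.0441 and 0.0457), and the mid hatching contrast is the one that chose the gene. bdnf and dusp5 had smaller values at mid hatching (0.24 and 0.26) than in males with a nest (0.61 and 0.48) or at early hatching (0.41 and 0.48), and the mid value differed from the early one by -0.17 and -0.23 (unadjusted p = 0.357 and 0.234). ndufa7 had 0.72 ± 0.13 at early and 0.16 ± 0.13 at mid hatching, and gria3a -0.48 ± 0.15 and 0.05 ± 0.15 (SE). The differences had unadjusted p = 0.00442 and 0.018, and neither passed (edgeR adjusted p = 0.811 for both). bdnf, dusp5, ndufa7 and gria3a belong to the orthologous gene list that had been picked on these samples. Their differences between stages are therefore not independent evidence.

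**Figure D5:**
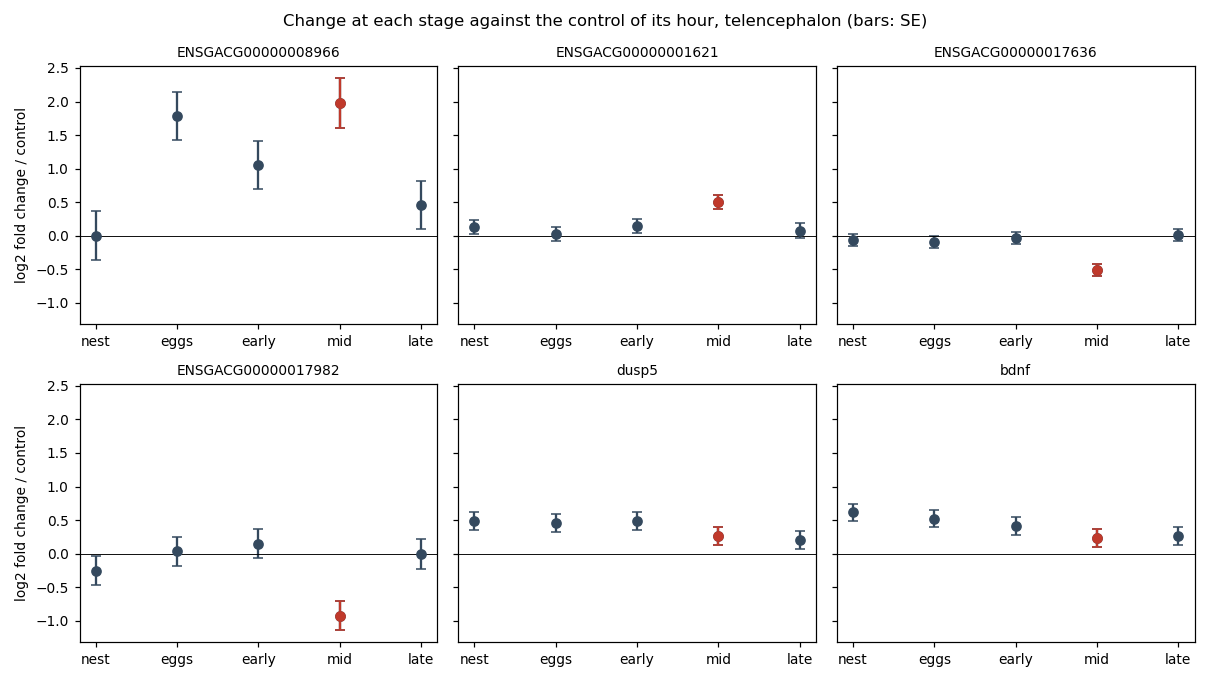
Log2 fold change in the telencephalon at each of 5 stages against the control males of its hour (points; bars, SE; mid hatching red), for 6 genes. ENSGACG00000017636 is near 0 at every stage but mid hatching (-0.51), ENSGACG00000008966 is highest with eggs (1.78) and at mid hatching (1.98), and bdnf and dusp5 are above 0 at all 5. The unnamed genes were chosen on the mid hatching contrast, and bdnf and dusp5 are from a list picked on these samples.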

How the data were processed

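Telencephalon RNA of 5 fathers at mid hatching and 5 control males of 1 p.m. was compared within the 79 libraries of the series. The authors called bases with CASAVA 1.8.2, aligned reads with TopHat2 2.0.8 to the repeat masked Ensembl genome and counted them on genes with HTSeq 0.6.1; the deposited values are whole-number counts per gene with no normalization. Libraries came from a stranded kit, and programs ran with their defaults except where the methods say otherwise, with no strand option named for the counting. How strand was used was not tested, so overlapping and antisense genes, and near-identical copies (named as copy 1 of 2 and the like), are uncertain. Reads outside genes made up 43.5% to 50.3% of those aligned in telencephalon libraries and stayed out of library sizes; reads in more than 1 gene were at most 0.0284%. Gene counts per telencephalon library ranged from 15839679 to 29785260. No pair of libraries was identical.

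A gene was tested when 5 or more libraries reached 0.5 CPM. edgeR 4.0.16 (R 4.3.3) scaled counts by TMM and fitted all 40 telencephalon libraries in 8 groups, with quasi-likelihood tests. P values were adjusted by Benjamini-Hochberg and called under 0.01. The region difference used all 79 libraries. A standard error is the log2 fold change over the square root of F. Summed marker levels and the share outside genes were tested by exact permutation of 5 against 5 males, the sums as log2 of CPM plus 0.5. The scripts were tested on simulated data. Names came from annotation columns of the supplementary tables, which hold genes the study called differentially expressed. Every named gene and list member was thus preselected. Of 826 listed symbols 144 genes were matched. No sequence table was given. Named genes were those without overlap by smallest p (mean of at least 1 CPM, up to 12 in each direction, and up to 2 unnamed in each), a fixed set of care genes, egr1, fos and clock genes, and up to 3 per list by p; others are said to be chosen after their values were seen. Members and lists were chosen with earlier results of these data known. One gene that this rule names is not reported here. Columns of the authors' own comparisons were not used.

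Alternatives were RLE factors, no filter, DESeq2 1.42.0, the likelihood ratio test, the 10 libraries alone, adjusted p under 0.05, covariates, leaving out each male, and the male as a block for the region difference. Fathers and control males share no male, so no block was possible between them. Telencephalon and diencephalon libraries are paired by the animal: in 9 of 9 males with both, deviations from the group means correlated best with the same male (r across 18207 genes from 0.345 to 0.745). Figures were drawn with matplotlib 3.10.9.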

Additional observations from a re-analysis of the deposited data

Results flagged for a closer look

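In 37 of 150 sets of 5 males that were checked, the highest or lowest male lay farther from its neighbour than 0.71 of the whole range. This cutoff gives about 1 in 20 such sets by chance only where values are independent and normally distributed. The values here were CPM not on a log scale, sums over 1 gene repeat that gene, and the genes of a tissue share their library. The 37 sets can therefore not be weighed against 1 in 20, and they are listed as a description only. Control male 96 was the highest in 21 sets, with 61.8 CPM of ENSGACG00000017982, 2119 of pomca, 29.5 of mpx, 77.8 of TNNT3, 209 of atp2a1, 589 of ACTC1, 155 of mpz, 29.8 of UGT8, 1091 of smtla, 853 of lhb, 162 of tshb, 62.9 of nr5a1b, 299.5 of col1a2, 1361 of prl, 2794 of cga, 44.8 of CCDC39 and 205 of tpm2, and with summed CPM of 2118 (diencephalon markers, 1 gene), 2197 (muscle and cartilage), 1121 (oligodendrocyte) and 7288 (pituitary). Control male 12 was the highest in 6, with 14.9 CPM of gngt2b, 15.12 of grk1a, 4.55 of slc1a2a, 4.84 of slc2a1a, and sums of 887 (photoreceptor) and 4.84 (vascular and blood, 1 gene). Control male 72 was the highest in 41.6 CPM of psmb11 and 413 CPM of mpeg1.

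Among fathers, male 80 was the highest in tshb (9.03 CPM), nr5a1b (9.57) and cga (159), male 86 in smtla (5.996), male 81 in grk1a (0.483) and slc2a1a (0.223 CPM, also the sum of vascular and blood markers), and male 92 in the sum of photoreceptor markers (40.5 CPM). slc2a1a was listed at 0 in the other 4 fathers.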

How the results depend on the processing

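The count of 0 genes at mid hatching was 0 with RLE factors, without the filter, with the 10 libraries alone, with either covariate and without each male in turn (0 to 0; unadjusted p under 0.05 for 926 to 1320 genes). It was 2 at an adjusted p of 0.05, 2 by the likelihood ratio test and 14 by DESeq2. smtla, ACTC1, ENSGACG00000008966 and ENSGACG00000017636 passed 0.01 by DESeq2, and the latter pair also by the likelihood ratio test. By the quasi-likelihood test no gene passed 0.05 with the 10 libraries alone (smallest adjusted p 0.227) or with marker scores as covariates (0.0876). Leaving out each male in turn, 0 to 4 genes passed 0.05. ENSGACG00000008966 had an adjusted p of 0.80 with the 10 libraries alone and 0.43 without father 92. Without males 12 and 96, a choice made after seeing the data, the count was 0 and the smallest adjusted p 0.337. No paired analysis was possible between fathers and control males because the groups share no male. For the region difference and the differences from early and late hatching the counts were 0 to 0 without each male, 0 at 0.05 and 0 without males 12 and 96; the replicate block left the region difference at 0 (1098 genes at an unadjusted p under 0.05, against 520). Of 66 genes named, 35 kept their direction in all 19 alternatives. As log2 fold changes, those that turned without control males 12 and 96 were pomca 2.50, lcp1 -0.0896, mpeg1 -0.31, atp2a1 0.14, ACTC1 1.86, UGT8 0.0787, gngt2b 0.0166, grk1a 0.30, smtla 0.39, lhb 3.21, tshb 4.098, slc1a2a 0.32, slc4a4b -0.10, nr5a1b 4.52, serpinh1a 0.0542, slc2a1a 0.46, prl 5.94, cga 4.36 and tpm2 1.04. Without fathers 80 and 86 as well, also chosen after seeing the data, they were ACTC1 2.04, UGT8 0.12, grk1a 0.45, slc1a2a 0.52, hmox1a 0.0925, slc2a1a 1.079, scg2a -0.14, prl 3.02 and tpm2 1.07. With marker scores as covariates mpeg1 became -0.0375, gngt2b 0.0871, tshb 0.36, nr5a1b 2.42, slc2a1a 0.97, prl 3.28 and cga 0.60, and with the share outside genes nr5a1b 0.56, prl 1.18 and cga 0.30. Of these, tshb, nr5a1b, prl and cga are pituitary markers and gngt2b is a photoreceptor marker. Each was thus adjusted for the score of its own list, so its turn with these scores is not a separate test. Leaving out each male in turn, ranges that crossed 0 were -7.76 to 1.03 (ACTC1), -0.0215 to 0.17 (NR4A1), -0.77 to 0.17 (UGT8), -4.16 to 0.0671 (atp2a1), -5.87 to 4.30 (cga), -0.21 to 0.0022 (cnih2), -0.21 to 0.10 (cyp46a2), -0.23 to 0.31 (gadd45ab), -7.44 to 0.29 (gngt2b), -0.0257 to 0.14 (gria3a), -0.71 to 0.0598 (hmox1a), -0.25 to 0.89 (irf8), -0.16 to 0.57 (lcp1), -6.71 to 3.37 (lhb), -0.27 to 0.98 (mpeg1), -1.37 to 0.11 (mpz), -5.07 to 4.95 (nr5a1b), -5.56 to 2.62 (pomca), -0.21 to 0.0180 (prkca), -4.22 to 5.60 (prl), -1.34 to 0.21 (psmb11), -0.39 to 0.0250 (sall3a), -0.41 to 0.0587 (serpinh1a), -7.38 to 0.26 (slc2a1a), -0.23 to 0.19 (slc4a4b), -8.49 to 0.57 (smtla), -2.51 to 0.98 (tpm2) and -7.21 to 3.99 (tshb). The causes were not tested. Intervals for genes with few counts, such as gngt2b in fathers, are wide, and their fitted fold changes depend on the prior count.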

Other observations

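Gene groups set by their annotated names after some values were seen gave no further genes past the adjusted threshold. G protein-coupled receptors had lower means in fathers in 9 of 9 members, with a median log2 fold change of -0.23, and 0 of 9 at an unadjusted p under 0.05. Of 11 ribosome biogenesis and translation genes, 9 had lower means (median -0.07, 0 at an unadjusted p under 0.05), and of 25 transcription factors and nuclear receptors, 17 had higher means (median 0.06, 0 at an unadjusted p under 0.05). Without control males 12 and 96, means were lower in 8 of the 9 receptors and in 6 of the 11 translation genes, with 5 higher. Of the transcription factors and nuclear receptors, 18 were then higher and 6 lower. Metabolic enzymes had a median of 0.02 over 40 members, with 1 higher and 2 lower at an unadjusted p under 0.05. Kinases and phosphatases had 1 higher and 6 lower of 37 with all libraries and 3 higher and 2 lower without control males 12 and 96. The 6 include ckmb and ckma, also counted as muscle markers, and grk1a, also counted as a photoreceptor marker. Ion channels had 0 higher and 3 lower of 15 (kcnv2a, cacna2d4b and CACNA1F), then 0 and 0 of 13. kcnv2a and cacna2d4b were not among those 13, as they were not tested without control males 12 and 96. Solute carriers had 0 higher and 2 lower of 13 (slc1a2a and slc2a1a, both named above), then 0 and 0, and inner ear genes 0 of 8 in either direction. Over all genes tested, 47.2% had higher means in fathers, 2.43% were higher and 3.14% lower at an unadjusted p under 0.05, and without control males 12 and 96 these shares were 3.57% and 2.65%.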
